A study of Homo sapiens with 12 samples.

Results

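Intestinal epithelium keeps its identity through a small group of transcription factors and shows its maturation in the surface and skeleton proteins that its cells make. The genes described here are 5 such factors (CDX1, CDX2, HNF4A, KLF4 and KLF5) and 4 differentiation markers (VIL1, KRT20, CEACAM5 and CEACAM6). They were chosen by name, by matching the Ensembl identifiers of the deposited count table to symbols, and all 9 were found among its 60648 genes. RNA was sequenced from poly-A selected libraries of HCT116, a human colon carcinoma line, in 4 groups of 3 libraries. The groups were MTHFD2 wild-type cells at an initial and a final harvest and MTHFD2 knock-out cells at the same harvests, and all were grown in the same medium with fetal bovine serum. MTHFD2 is an enzyme of folate metabolism that was removed with CRISPR-Cas9. The knock-out was 1 clone, sampled directly after it was made and again after 2 months of culture, so that the loss of MTHFD2 and other properties of that clone cannot be told apart.

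CDX1 and CDX2 are homeobox factors that set the intestinal programme during development and maintain it in the adult gut. HNF4A is a nuclear receptor that drives enterocyte and hepatocyte genes, KLF5 is active in the proliferating crypt, and KLF4 is linked to cells that leave the cycle and to goblet cells. Villin (VIL1) bundles actin in the microvilli of the brush border, keratin 20 (KRT20) is the keratin of mature surface cells, and CEACAM5 and CEACAM6 are adhesion proteins that many colon tumours make in large amounts.

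Library totals ran from 38597809 to 40017561 counts, and mitochondrial genes took between 6.46% and 13.8% of them. MTHFD2 counts checked the labels: its abundance in the knock-out was 33.2% of the wild type at the initial harvest and 38.5% at the final harvest. The line carried epithelial transcripts throughout, with KRT19, KRT8, EPCAM, KRT18, CLDN4, CDH1, CLDN3 and CLDN7 all passing the filter on low counts. Their summed level was 3079 to 3729 CPM (counts scaled to the library total with TMM factors) in the initial wild type, 3482 to 3850 in the final wild type, 2861 to 3050 in the initial knock-out and 2554 to 2934 in the final knock-out. Among markers of other cell types, DCN, LUM and CD3E had 0 counts in every library, and COL1A2, PTPRC and CDH5 had at most 2. The 7 fibroblast markers summed to 56.3 to 69.1 CPM in the initial and 59.5 to 78.2 CPM in the final wild type, against 36.5 to 46.6 and 41.6 to 58.0 CPM in the knock-out, and nearly all of it was COL1A1 (group means from 40.6 to 68.5 CPM). The 6 leukocyte markers summed to 1.33 to 2.31 CPM in the wild type and 2.79 to 3.46 CPM in the knock-out, and the 5 endothelial markers to 2.03 to 2.99 and 2.48 to 3.73 CPM. The part of these markers in the genotype differences below was not tested.

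KLF5, KLF4, CDX2 and HNF4A were measured well above the limit of detection, and CDX1 and the 4 differentiation markers were at or near it. Levels were compared between genes in TPM, which scales counts by the exon length in the table and by the library. KLF5 was the highest in every group, with mean levels from 61.6 to 75.5 TPM. KLF4 followed with 25.5 to 40.4 TPM, CDX2 with 13.0 to 15.6 TPM and HNF4A with 2.32 to 4.82 TPM. The ranges of neighbours in this order did not overlap in any group. In the final wild type the order of CDX2 and HNF4A depended on the exon lengths, 3517 and 11917 bases. There HNF4A had 18.3 and CDX2 14.5 CPM, while in each other group CDX2 was also higher in CPM. KRT20 stood lower, from 0.224 to 0.878 TPM, and its range was apart from that of the next gene in every group except the final knock-out, where it overlapped that of CEACAM5. VIL1 had 0.0421 to 0.115 TPM, and CEACAM5, CEACAM6 and CDX1 averaged at most 0.0725 TPM in each group, with ranges that mostly overlapped. Of the 9 genes, 5 passed the filter on low counts and were tested: CDX2, HNF4A, KLF4, KLF5 and KRT20. KRT20 passed only through wild-type libraries, of which 5 of 6 reached the filter's 0.253 CPM against 0 of 6 knock-out libraries. Its difference is therefore described only, and KRT20 enters no count of called members below.

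**Figure D1:**
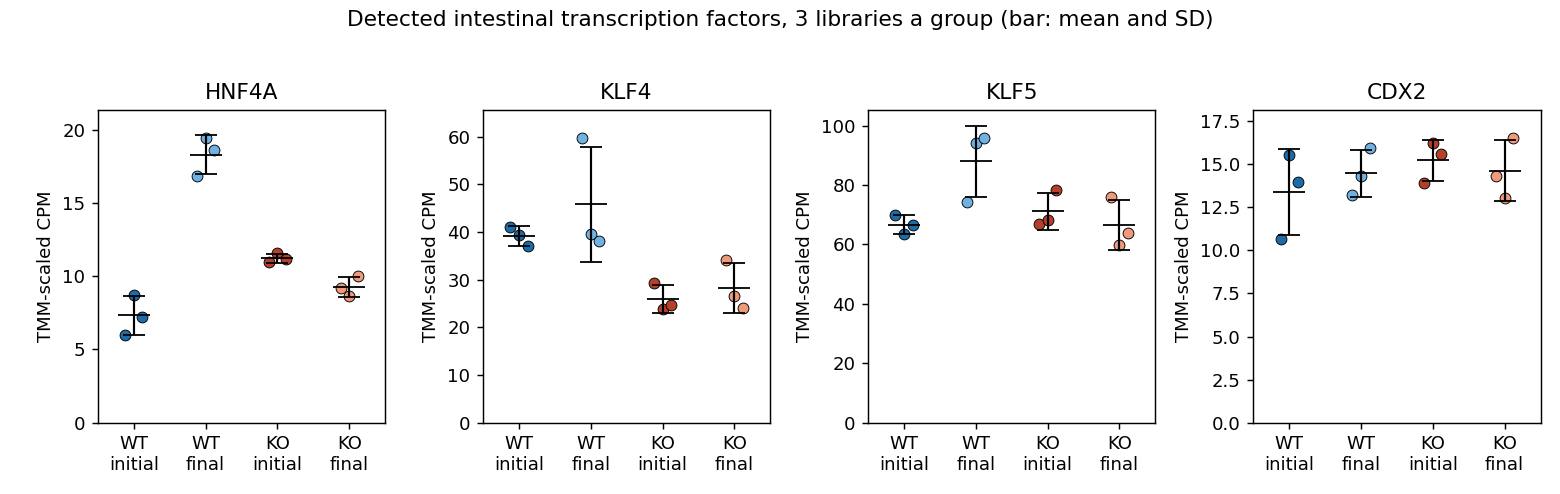
TMM-scaled CPM (vertical axes, each from 0) of HNF4A, KLF4, KLF5 and CDX2 in the 12 libraries, by genotype and harvest; points are libraries and bars the mean and SD of 3. HNF4A was highest in the final wild type (16.8 to 19.4 CPM), KLF4 was called lower in the knock-out at both harvests, and the 4 groups of CDX2 overlapped.

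Genotypes were compared at each harvest to ask which transcripts differed at the start and after prolonged culture. A gene was called changed at an adjusted p under 0.05 in edgeR's quasi-likelihood test. At the initial harvest 19.9% of the 18289 genes tested were called (8.55% higher and 11.3% lower), and of the 4 factors tested HNF4A was higher and KLF4 lower in the knock-out. At the final harvest 18.5% were called (8.38% higher and 10.2% lower), and HNF4A, KLF4 and KLF5 were all lower in the knock-out. Scaled by library totals alone, the final comparison gave 2006 higher and 1484 lower genes in place of 1533 and 1858, and the calls on the factors held. Averaged over both harvests 30.1% of all genes were called (14.0% higher and 16.1% lower), and KLF4 was the factor that passed. CDX2 was called in none of the 6 comparisons by edgeR or DESeq2, and its smallest unadjusted p was 0.176.

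HNF4A (ENSG00000101076.18, GRCh38 chromosome 20, 44355700 to 44434596, plus strand) was the gene whose genotype difference turned around between harvests. Wild-type replicates measured 6.01, 8.70 and 7.23 CPM at first and 16.8, 19.4 and 18.6 CPM after culture. Knock-out replicates measured 10.9, 11.6 and 11.2 CPM at first and 9.16, 8.65 and 9.97 CPM after culture. At either harvest the ranges did not overlap, as in 35.5% of all genes tested at first and 33.1% after culture. The knock-out lay above the wild type at first and below it later. At first HNF4A was 1.53-fold higher in the knock-out (log2 fold change 0.62, SE 0.121, edgeR adjusted p 0.00169) and had 50.7% of the wild-type level at the final harvest (-0.98, SE 0.118, edgeR adjusted p 1.64e-05).

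HNF4A rose with culture in the wild type and was not called over time in the knock-out. In the wild type 6.47% of all genes changed between harvests, with 558 higher (3.05%) and 625 lower (3.42%), or 351 and 1281 when scaled by library totals alone, and HNF4A rose 2.50-fold from 7.31 ± 1.35 to 18.3 ± 1.32 CPM (SD, n = 3; log2 fold change 1.32, SE 0.120, edgeR adjusted p 6.65e-06). In the knock-out 1.48% of all genes changed (0.837% higher and 0.64% lower), and none of the factors tested did under edgeR or DESeq2. Without adjustment, edgeR gave a p under 0.05 for HNF4A alone (0.0344). In the knock-out HNF4A went from 11.2 ± 0.309 to 9.26 ± 0.668 CPM (SD, n = 3; log2 fold change -0.28, SE 0.120, edgeR adjusted p 0.29), and the ranges of these groups did not overlap, as in 23.2% of all genes tested. The interaction, a test of how far the 2 genotypes part in their change over time, was called in 1.28% of all genes (148 or 0.809% higher and 87 or 0.476% lower, against 221 and 60 with library totals alone). For HNF4A it was -1.60 (SE 0.169, 95% interval -1.96 to -1.24, edgeR adjusted p 9.79e-05). Leaving out any 1 of the 12 libraries kept it between -1.74 and -1.48. Because the directions were opposite, the difference averaged over both harvests was small (-0.18, SE 0.0845, edgeR adjusted p 0.119) and passed without the initial wild-type replicate 1 (-0.24, edgeR adjusted p 0.0212).

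HNF4A is transcribed from separate start sites whose products differ at the amino end, and the counts, summed over all its exons, do not tell them apart. RefSeq on GRCh38.p14 places its starts 45540 bases apart, and the 250 bases before each are shown because the table does not say which start was in use. Capitals mark CpG dinucleotides, the sites of DNA methylation, of which each window holds 8 against a median of 11 over the 35116 promoter windows in the table. The upstream window is chr20:44355449-44355698 and the downstream window chr20:44400989-44401238, both on the plus strand.
HNF4A, upstream start: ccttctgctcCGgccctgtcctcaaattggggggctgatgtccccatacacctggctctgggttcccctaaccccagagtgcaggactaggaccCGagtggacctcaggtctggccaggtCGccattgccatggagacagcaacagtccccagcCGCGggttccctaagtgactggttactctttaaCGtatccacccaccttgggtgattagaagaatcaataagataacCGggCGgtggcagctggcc
HNF4A, downstream start: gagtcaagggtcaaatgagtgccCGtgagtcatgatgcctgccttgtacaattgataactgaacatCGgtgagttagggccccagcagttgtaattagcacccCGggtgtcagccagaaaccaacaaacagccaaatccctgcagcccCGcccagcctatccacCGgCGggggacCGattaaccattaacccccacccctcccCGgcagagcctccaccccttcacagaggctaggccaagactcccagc
Neither window held the letters searched for HNF4 (CAAAGTC), CDX (TTTATG) or KLF (GGGNGTG) factors on either strand. Genes that overlap HNF4A had at most 1 count in any library.

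KLF4 (ENSG00000136826.15, chromosome 9, 107484852 to 107490482, minus strand) was lower in the knock-out at both harvests. Wild-type replicates measured 41.1, 39.4 and 37.0 CPM at first and 59.7, 39.6 and 38.2 CPM after culture. Knock-out replicates measured 29.2, 23.9 and 24.6 CPM at first and 34.2, 26.5 and 24.1 CPM after culture. At either harvest the genotype ranges did not overlap, as in 35.5% (initial) and 33.1% (final) of all genes tested. The log2 fold change was -0.60 at the initial (SE 0.157, edgeR adjusted p 0.0129), -0.70 at the final harvest (SE 0.157, edgeR adjusted p 0.00456) and -0.65 averaged over both (SE 0.111, edgeR adjusted p 0.000294), which left 63.9% of the wild-type level. The initial call was lost without the initial knock-out replicate 2 (-0.54, edgeR adjusted p 0.0662) or replicate 3 (-0.56, edgeR adjusted p 0.056), while the averaged difference passed without any 1 library, with adjusted p from 0.000141 to 0.00147. KLF4 did not pass over time in either genotype, and its interaction was -0.10 (SE 0.221, 95% interval -0.57 to 0.37, edgeR adjusted p 0.894).

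The library with the highest KLF4, the final wild-type replicate 1, was also the library with the highest share of mitochondrial counts (13.8%). That share was 6.46% to 8.58% in the initial wild type, 9.53% to 13.8% in the final wild type, 8.07% to 8.36% in the initial knock-out and 9.07% to 10.4% in the final knock-out. The genes whose log2 CPM followed KLF4 most closely over the 12 libraries, among 12533 genes compared, were MT-TV (Pearson r 0.984), ENSG00000256618.3 (0.944) and MT-RNR2 (0.938), and MT-TV and MT-RNR2 are encoded in the mitochondrial genome. The part of mitochondrial counts in the KLF4 difference was not tested. Without the final wild-type replicate 1 the final difference was -0.46 and still passed (edgeR adjusted p 0.0258).

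The promoter window of KLF4 (chr9:107489770-107490019, minus strand, GRCh38.p14) is shown as a CpG-rich window, with 25 CpG dinucleotides in capitals. KRT20 had 2 (chr17:40885243-40885492, minus strand), and its window is shown because it held matches to the motifs searched.
KLF4: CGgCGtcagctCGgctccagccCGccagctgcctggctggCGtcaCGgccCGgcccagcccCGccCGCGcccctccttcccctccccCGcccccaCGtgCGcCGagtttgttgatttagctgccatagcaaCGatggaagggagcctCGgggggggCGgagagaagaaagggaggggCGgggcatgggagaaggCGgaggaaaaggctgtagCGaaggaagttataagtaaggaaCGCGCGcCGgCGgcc
KRT20: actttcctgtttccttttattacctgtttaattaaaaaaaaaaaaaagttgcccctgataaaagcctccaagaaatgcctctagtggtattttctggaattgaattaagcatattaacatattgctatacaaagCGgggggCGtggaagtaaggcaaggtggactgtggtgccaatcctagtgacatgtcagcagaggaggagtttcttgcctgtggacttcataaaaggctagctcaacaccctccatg
In the KRT20 window a CDX match (CATAAA, the motif read on the other strand) began 29 bases before the start and a KLF match (GGGCGTG) 112 bases before it. A CDX match was present in 9.64%, an HNF4 match in 2.91% and a KLF match in 27.1% of all such windows of 250 bases. The windows of KLF4, KLF5, CDX2 and CEACAM6 held none of the 3 motifs, and that of CEACAM5 held a KLF match (CACACCC) 59 bases before its start. The windows of CEACAM5 and CEACAM6, which are neighbouring genes, were identical at 190 of 258 aligned positions (73.6%).

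**Figure D2:**
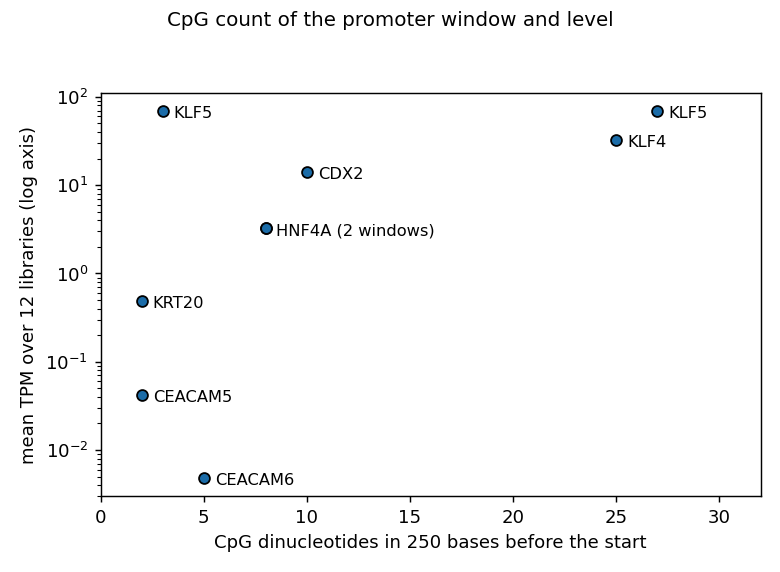
Number of CpG dinucleotides in the 250 bases before each RefSeq start (horizontal axis) against the mean level over 12 libraries in TPM (vertical log axis); each point is a promoter window, and genes with 2 starts have 2 windows. KLF4 (25) and the downstream start of KLF5 (27) had the most, KRT20 and CEACAM5 the fewest (2 each), and the upstream start of KLF5 had 3.

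KLF5 (ENSG00000102554.14, chromosome 13, 73054976 to 73077541, plus strand) was the most abundant of the 9 genes and differed between genotypes at the final harvest. Wild-type replicates measured 70.0, 63.5 and 66.5 CPM at first and 74.2, 94.1 and 95.8 CPM after culture. Knock-out replicates measured 66.8, 68.3 and 78.2 CPM at first and 76.0, 59.9 and 63.8 CPM after culture. The wild-type groups did not overlap, as in 22.2% of all genes tested, whereas at the final harvest the knock-out replicate 1 lay above the wild-type replicate 1. KLF5 rose 1.32-fold over time in the wild type (log2 fold change 0.40, SE 0.109, edgeR adjusted p 0.0369). At the final harvest the knock-out had 75.6% of the wild-type level (-0.40, SE 0.109, edgeR adjusted p 0.0155).

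Both KLF5 calls rested on few libraries. The rise in the wild type was lost with scaling by library totals alone (0.32, edgeR adjusted p 0.108), with the wild-type libraries fitted alone (0.40, edgeR adjusted p 0.0856), and without the initial wild-type replicate 2 or 3, the final wild-type replicate 2 or 3, or the initial knock-out replicate 2 (0.34 to 0.40, adjusted p from 0.0575 to 0.163). The final genotype difference was lost without the final wild-type replicate 2 or 3 or the final knock-out replicate 2 or 3 (-0.38 to -0.33, adjusted p from 0.0505 to 0.0705). The interaction of KLF5 was -0.50 (SE 0.154, edgeR adjusted p 0.159) and passed in the fit of all genes without a filter on low counts (edgeR adjusted p 0.0391) and without the final wild-type replicate 1 (edgeR adjusted p 0.0447). At the initial harvest the genotypes differed by 0.09 with an interval from -0.14 to 0.32.

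CDX2 (ENSG00000165556.10, chromosome 13, 27960918 to 27969315, minus strand) overlapped between all 4 groups. Wild-type replicates measured 10.7, 15.5 and 14.0 CPM at first and 13.2, 14.3 and 15.9 CPM after culture, and knock-out replicates 13.9, 16.2 and 15.6 CPM at first and 14.3, 13.0 and 16.5 CPM after culture. The lowest value was the initial wild-type replicate 1, and every pair of groups overlapped. The log2 difference between genotypes was 0.19 at the initial harvest (95% interval -0.09 to 0.47) and 0.01 at the final harvest (95% interval -0.27 to 0.29). CDX1, its paralogue (ENSG00000113722.17, chromosome 5, 150166778 to 150184558, plus strand), had 1 count in the final wild-type replicate 2 and 0 in the other 11 libraries. A count of 0 allows up to 3 counts in a library, so the order of the groups was not detectable for CDX1 at this depth; this limit covers counting error only.

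**Figure D3:**
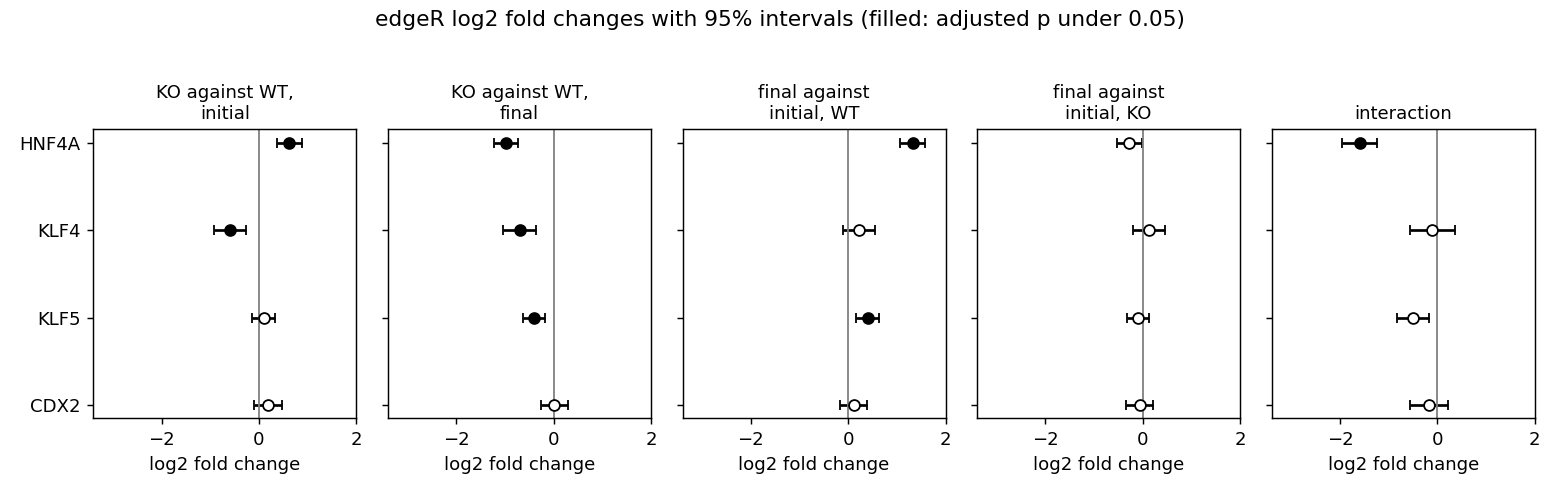
edgeR log2 fold changes of the 4 tested factors in 5 comparisons (horizontal axes), with 95% intervals; filled points passed an adjusted p of 0.05. HNF4A lies at 0.62 before and -0.98 after culture, KLF4 lies below 0 at both, and CDX2 lies near 0 in all panels.

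Among the differentiation markers, KRT20 and VIL1 gave a few counts per library and the CEACAM genes almost none. KRT20 (ENSG00000171431.4, chromosome 17, 40875889 to 40885242, minus strand) had 13, 17 and 9 counts in the initial and 17, 27 and 17 in the final wild type, against 6, 7 and 2 in the initial and 3, 2 and 10 in the final knock-out. The genotype groups did not overlap at either harvest, as in 35.5% of all genes tested at first and 33.1% after culture. That separation is a description too, because KRT20 passed the filter through wild-type libraries alone. In all, the 6 wild-type libraries held 100 and the 6 knock-out libraries 30 counts. The log2 difference was -1.33 (SE 0.513) before and -2.06 (SE 0.473) after culture, given as a description with no test.

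VIL1 (ENSG00000127831.11, chromosome 2, 218419121 to 218453295, plus strand) had 8, 9 and 4 counts in the initial and 12, 5 and 12 in the final wild type, against 3, 3 and 7 in the initial and 1, 5 and 4 in the final knock-out. Genotypes overlapped before culture. After culture the highest knock-out library (0.128 CPM) and the lowest wild-type library (0.130 CPM) had 5 counts each. The ranges in CPM thus lay side by side without overlap, as in 33.1% of all genes tested. In all, wild-type libraries held 50 and knock-out libraries 23 counts. VIL1 did not pass the filter, and in a fit without it the averaged difference was -1.11 (SE 0.404, edgeR adjusted p 0.0427) and neither harvest passed. USP37, on the other strand, overlaps VIL1 and had 1026 to 1257 counts, and the use of strand in the counting is not stated, so reads of the pair cannot be told apart.

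CEACAM5 (ENSG00000105388.16, chromosome 19, 41708585 to 41730433, plus strand) had 1, 0 and 0 counts in the initial wild type, 1, 3 and 1 in the final wild type, 2, 4 and 1 in the initial knock-out, and 3, 5 and 2 in the final knock-out. Wild-type libraries held 6 counts in all and knock-out libraries 17, and the fit without a filter did not call the averaged difference (edgeR adjusted p 0.145). CEACAM6 (ENSG00000086548.9, chromosome 19, 41750977 to 41772211, plus strand) had 1 count in replicate 1 of each wild-type group and 0 in the other 10 libraries. No fold change is given for CEACAM5, CEACAM6 or CDX1, whose counts were at or under 3 in nearly all libraries. These adhesion genes are close paralogues, and how the counting treated reads that fit several genes is not stated.

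**Figure D4:**
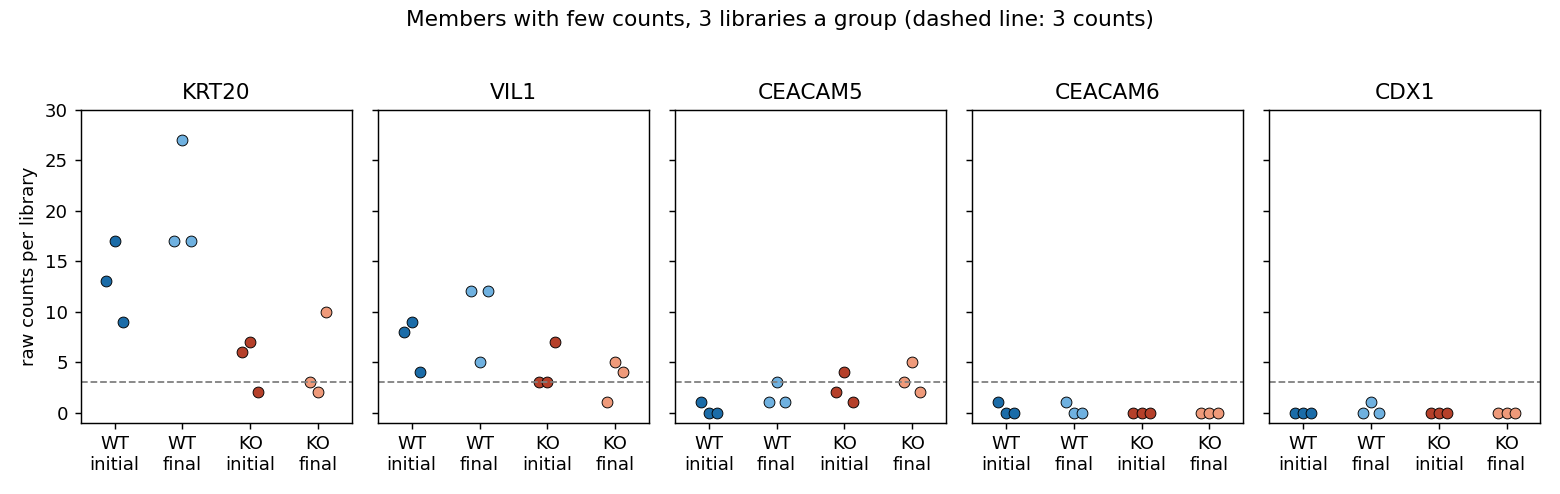
Raw counts (vertical axis) of KRT20, VIL1, CEACAM5, CEACAM6 and CDX1 in the 12 libraries, by genotype and harvest; points are libraries and the dashed line marks 3 counts. KRT20 reaches 27 counts in the final wild type and at most 10 in the knock-out, and CEACAM6 and CDX1 do not exceed 1.

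Of 26 other transcription factors of the intestine 18 were tested, and in the knock-out 2 were higher and 6 lower at the initial harvest, with a median log2 difference of -0.16, and 2 were higher and 8 lower at the final harvest (median -0.19). The medians over all genes tested were 2.49e-05 and -0.000827. Of all genes tested, 8.55% were higher and 11.3% lower at the initial harvest, and 8.38% higher and 10.2% lower at the final harvest. On average 14.0% were higher and 16.1% lower. These shares also stand beside the genotype counts of the lists that follow. Of the 18 factors tested, 2 were called higher on average, CREB3L3 and ONECUT2, and 9 lower. In fits that left out 1 library, CREB3L3 was higher by 1.57 to 1.77 at the initial harvest and by 0.93 to 1.05 on average. ONECUT2 was higher by 0.43 to 0.62 at the final harvest and by 0.26 to 0.44 on average. Its final call was lost in 3 of these fits and its averaged call in 1. GATA4, GATA5, MAF and CDX4 had 0 counts in every library. HNF4G, the paralogue of HNF4A, was lower in the knock-out at both harvests (log2 fold change -0.56, edgeR adjusted p 0.00539, and -0.52, edgeR adjusted p 0.00804), with 5.19 ± 0.225 and 3.52 ± 0.133 CPM at the initial harvest (SD, n = 3). PPARG, a nuclear receptor of maturing colonocytes, was lower, at -0.45 (edgeR adjusted p 0.0199) and -0.93 (edgeR adjusted p 5.36e-05). The initial PPARG call was lost without the initial wild-type replicate 2 or the initial knock-out replicate 1 or 2 (adjusted p from 0.0604 to 0.0909). GRHL2, which maintains epithelial junctions, was lower, at -1.47 (edgeR adjusted p 2.26e-09) and -0.53 (edgeR adjusted p 0.000139). ELF3, an epithelial factor, rose from 103 ± 2.56 to 160 ± 14.9 CPM over time in the wild type (SD, n = 3, log2 fold change 0.63, edgeR adjusted p 0.000155). ELF3 was also called lower in the knock-out at the final harvest. That call was lost in 10 of the 12 fits that left out a library (-0.28 to -0.15, edgeR adjusted p from 0.0549 to 0.188).

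In the KLF family, which includes KLF4 and KLF5, 15 of 17 genes were tested. In the knock-out 1 was higher and 6 lower at the initial harvest (median log2 difference -0.34), and 2 were higher and 8 lower at the final harvest (median -0.37; 6 lower with library totals alone). KLF6 and KLF10, the most abundant of the family per length at 107 and 97.4 TPM over all libraries, were among the lower ones. KLF10, a gene induced by TGF-beta, was lower, at -0.59 (edgeR adjusted p 7.75e-05) and -0.75 (edgeR adjusted p 6.62e-06), KLF11 at -0.66 (edgeR adjusted p 7.7e-05) and -0.51 (edgeR adjusted p 0.000954), and KLF9 at -0.76 (edgeR adjusted p 0.000266) and -0.41 (edgeR adjusted p 0.0227). KLF2 was higher at the initial harvest (0.52, edgeR adjusted p 0.00374) and KLF8 at the final harvest (0.65, edgeR adjusted p 0.0162). In the wild type 2 rose and 1 fell over time (0 rose with library totals alone): KLF5 and KLF16 (0.32, edgeR adjusted p 0.0296) rose and KLF7 (-0.46, edgeR adjusted p 0.0178) fell. Of these calls, those of KLF9 and KLF8 at the final harvest and of KLF16 and KLF7 over time were lost in some fits. KLF9 was lost with library totals alone (edgeR adjusted p 0.0621) and without the final wild-type replicate 2 or 3 or the final knock-out replicate 2 (adjusted p from 0.0624 to 0.108), and KLF8 without the final wild-type replicate 1 or 3 or the final knock-out replicate 2 (adjusted p from 0.0538 to 0.0685). KLF16 was lost with library totals alone, without a filter, with only the groups compared, and without the initial wild-type replicate 1 or 3 or the final wild-type replicate 2 or 3 (adjusted p from 0.0712 to 0.136). KLF7 was lost with only the groups compared (edgeR adjusted p 0.084) and without the initial wild-type replicate 1 or 3 or the final wild-type replicate 2 (adjusted p from 0.0685 to 0.1).

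Most genes of the absorptive programme were near the limit of detection. Of 31 absorptive genes 12 were tested, and 14 were at 3 counts or fewer in every library, among them FABP1 and APOB, at 0, and SI, FABP2 and CA4, at most 1. In the knock-out 3 were higher and 3 lower at the initial and 5 higher and 1 lower at the final harvest (median log2 differences 0.32 and 0.52). CA2, a carbonic anhydrase of the colon surface, was higher at both harvests (1.12, edgeR adjusted p 3.73e-06, and 0.78, edgeR adjusted p 0.000141), with 42.9 ± 7.09 CPM in the initial wild type and 92.9 ± 6.37 CPM in the initial knock-out (SD, n = 3). CA12, another carbonic anhydrase, was higher by 0.30 (edgeR adjusted p 0.0365) and 0.36 (edgeR adjusted p 0.0158). The initial CA12 call was lost without a filter (edgeR adjusted p 0.0783) and without any 1 of the 6 initial libraries (adjusted p from 0.0549 to 0.127), and the final call without the wild-type replicate 2 or 3 or the knock-out replicate 2 of that harvest (adjusted p from 0.0764 to 0.105). DPP4, a brush border peptidase, was lower, at -0.55 (edgeR adjusted p 0.000717) and -1.02 (edgeR adjusted p 1.03e-06). DPP4 also rose over time in the wild type (0.66, edgeR adjusted p 0.000502). Of 18 brush border genes 14 were tested, and the knock-out had 2 higher and 4 lower at first, then 1 higher and 2 lower (medians -0.06 and -0.03). EZR, the ezrin that links actin to the membrane, was higher (0.39, edgeR adjusted p 0.0112, and 0.33, edgeR adjusted p 0.0287), and EPS8, an actin capping protein, was lower (-0.63, edgeR adjusted p 3.02e-05, and -0.52, edgeR adjusted p 0.000194). The final EZR call was lost with only the groups compared (edgeR adjusted p 0.0702) and without the final wild-type replicate 2 or 3, the initial knock-out replicate 1 or any final knock-out library (0.28 to 0.35, adjusted p from 0.0514 to 0.148), and the initial call without the initial knock-out replicate 2 (edgeR adjusted p 0.0568).

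Of 12 CEACAM genes 3 were tested, and 6, of which 4 had 0 counts throughout, were at 3 counts or fewer in every library. CEACAM1, an inhibitory adhesion receptor, was higher in the knock-out at both harvests (0.93, edgeR adjusted p 0.00173, and 1.01, edgeR adjusted p 0.00126), with 3.14 ± 0.875 and 5.98 ± 0.514 CPM at the initial harvest (SD, n = 3). CEACAM20 was higher at the final harvest (1.79, edgeR adjusted p 0.00378), and CEACAM19 was lower at the initial harvest (-0.44, edgeR adjusted p 0.0376). The CEACAM19 call was lost with only the groups compared (edgeR adjusted p 0.0516) and without the initial wild-type replicate 1 or 3, the final wild-type replicate 2 or any initial knock-out library (-0.46 to -0.32, adjusted p from 0.0512 to 0.15). Of the 6 simple keratins besides KRT20, all tested, the knock-out had 0 higher and 2 lower at first (median -0.24), then 2 higher and 3 lower (median -0.35). KRT18 and KRT19, which are abundant in simple epithelia, were lower at the final harvest (-0.36, edgeR adjusted p 0.0128, and -0.54, edgeR adjusted p 0.00568), and KRT23 was lower at both (-1.92, edgeR adjusted p 4.06e-06, and -0.73, edgeR adjusted p 0.0159). The final KRT18 call was lost without the final knock-out replicate 1 or 2 (adjusted p from 0.0511 to 0.0678), and the final KRT23 call without the final wild-type replicate 3 or the final knock-out replicate 1 or 2 (adjusted p from 0.0595 to 0.104). KRT23 is also the nearest tested neighbour of KRT20 towards higher coordinates.

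The turn of HNF4A between harvests was uncommon in the table and had counterparts among genes of the other lists. Opposite calls at the 2 harvests were made for 30 of the 18289 genes (0.164%). Outside the members, 9 lists held 155 genes, of which 93 were tested, 9 had a called interaction and 6 were called in opposite directions. These lists took in the whole KLF and CEACAM families and the simple keratins, so not all their genes mark intestinal identity. These shares are descriptive. Of the 9, MUC13 and CREB3L3 moved with the sign of HNF4A. MUC13, a membrane mucin, had 1.39, 0.84 and 1.48 CPM in the initial wild type and 4.21, 3.96 and 3.03 CPM in the final wild type. It had 3.46, 3.11 and 2.63 CPM in the initial and 1.86, 2.42 and 1.71 CPM in the final knock-out (interaction -2.21, SE 0.292, edgeR adjusted p 0.000627). CREB3L3, a membrane-bound factor of liver and intestine, rose over time in the wild type (1.24, edgeR adjusted p 0.000519), stood in the knock-out at 2.72 ± 0.369 CPM before and 2.48 ± 0.256 CPM after culture (SD, n = 3), and had an interaction of -1.38 (edgeR adjusted p 0.00649).

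The other 7 moved with the opposite sign. EHF, an epithelial ETS factor, had 144, 130 and 150 CPM in the initial and 60.1, 58.9 and 60.7 CPM in the final wild type, while all 6 knock-out libraries had 69.0 to 79.1 CPM (interaction 1.28, SE 0.109, edgeR adjusted p 1.49e-05). SLC5A1, the sodium-glucose transporter of enterocytes, fell in the wild type (-1.13, edgeR adjusted p 0.00435) and rose in the knock-out (1.13, edgeR adjusted p 0.0153), with an interaction of 2.25 (edgeR adjusted p 0.000879). SLC15A1, the peptide transporter of enterocytes, fell in the wild type from 9.24 ± 1.21 to 3.71 ± 0.248 CPM (SD, n = 3; -1.32, edgeR adjusted p 7.04e-06) and had an interaction of 1.54 (edgeR adjusted p 0.000119). The keratins KRT7 and KRT80 fell in the wild type by 2.04 and 1.63 on the log2 scale (edgeR adjusted p 1.08e-07 and 9.68e-07), with interactions of 1.19 and 1.21 (edgeR adjusted p 0.0012 and 0.00112). GRHL2 rose over time in the knock-out (0.82, edgeR adjusted p 3.22e-05; interaction 0.95, edgeR adjusted p 0.000231). KLF7 had an interaction of 0.72 (edgeR adjusted p 0.0294), which was lost in 9 of the 12 fits that left out a library. Its opposite genotype calls were lost in 6 of these fits at the initial and in 3 at the final harvest. The final genotype call of EHF was lost in 1 of them (edgeR adjusted p 0.0515). The rise of SLC5A1 in the knock-out was lost without the initial knock-out replicate 2 or 3 or the final knock-out replicate 2 or 3.

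**Figure D5:**
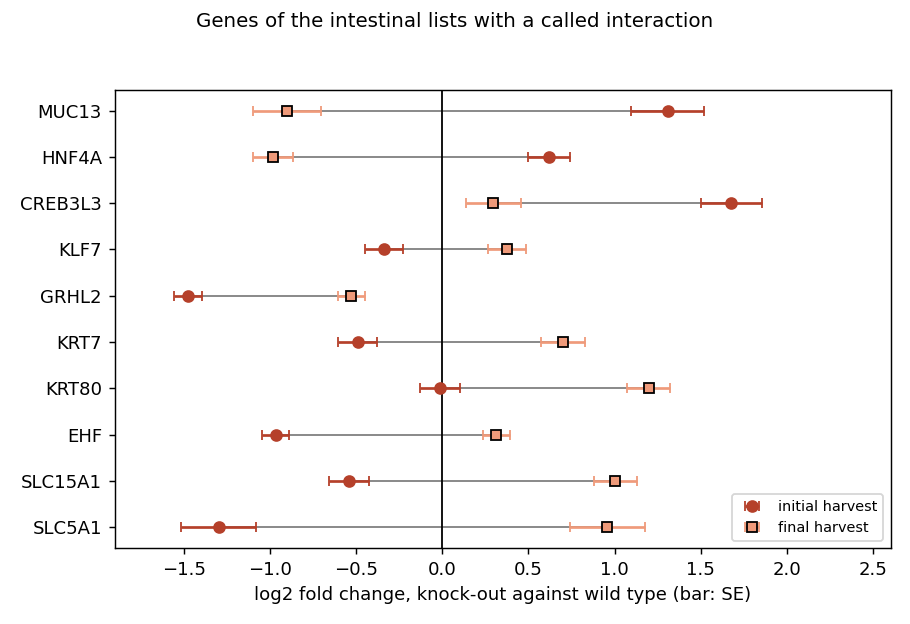
edgeR log2 fold change of knock-out against wild type (horizontal axis, bars are SE) at the initial (circles) and final harvest (squares) for HNF4A and the 9 genes of the other lists with a called interaction. MUC13, HNF4A and CREB3L3 lie further right at the initial harvest, and the other 7 lie further right at the final harvest.

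Genes with the pattern most like each factor were ranked by Pearson correlation of log2 CPM over the 12 libraries, among 12533 genes whose log2 CPM averaged 1 or more; the libraries share genotype and harvest, and the values are descriptive. For HNF4A they were the histone gene H1-2 (0.946), STK10 (0.946) and RIOX1 (0.925), and STK10 had 41.2 ± 1.38, 50.9 ± 1.13, 44.8 ± 1.69 and 43.9 ± 1.66 CPM in the initial wild type, final wild type, initial knock-out and final knock-out (SD, n = 3). For KLF5 they were FAM210A (0.934), RP2 (0.933) and UBE2A (0.909). For CDX2 they were YWHAE (0.962), SMIM26 (0.960) and EEF2 (0.956), whose initial wild-type libraries also spread widely, with 3710 ± 593 CPM for EEF2. For KRT20 they were ZNF687 (0.946), NARF (0.931) and PLEKHG6 (0.928).

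The genes beside each factor on its chromosome did not all share its difference. Of the 10 tested neighbours of HNF4A, 5 on either side, 2 were called at each harvest, and their log2 differences had a median of -0.31 (-0.52 to 0.09) at the initial and -0.22 (-0.77 to 0.48) at the final harvest. The nearest were FITM2 (-0.32 and -0.55) and TTPAL (-0.03 and -0.04), and 0 of the 10 had a called interaction. Of the 10 neighbours of KLF4, 3 were called at first and 4 after culture, with medians of 0.00 and 0.04. The nearest were RAD23B (0.01 and 0.04) and RPL31P43 (-0.71 and -1.08), a pseudogene. Of the 10 neighbours of KLF5, 0 were called at first and 1 after culture, where the median was 0.16, and the nearest were PIBF1 (-0.15) and KLF12 (0.16). Around CDX2 0 of 10 were called at either harvest. Around the marker KRT20 4 of 10 were called at first and 5 after culture, with medians of -0.32 and -0.45.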

How the data were processed

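Poly-A RNA of HCT116 cells was sequenced in 12 libraries, 3 in each of 4 groups set by genotype and harvest, per the labels. The authors deposited counts for each gene, raw and without normalization, laid out as featureCounts writes it, per the file headers. STAR, featureCounts, Subread and the hg38 build are named in the submitters' processing notes, without versions. The annotation release, strand setting and treatment of reads with several matches are not given in the sources used here. Of 60653 lines, 5 that break up 1 gene were left out. Symbols were matched for 60506 of 60648 genes, and 37318 identifiers had the same version and coordinates in GENCODE 29. Replicate libraries of a group differed beyond sampling noise, with correlations from 0.989 to 0.996.

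Counts were filtered with filterByExpr, TMM-scaled and tested with edgeR 4.0.16 under R 4.3.3 (with limma 3.58.1) in robust quasi-likelihood tests, 1 model of all 12 libraries with a mean per group, and Benjamini-Hochberg adjustment over 18289 genes. SE was the log2 fold change over the root of the F statistic. The 6 comparisons were genotype at each harvest and averaged, time in each genotype, and their interaction. Scripts were tested on simulated counts. Alternatives were RLE factors, library totals alone, no filter, only the groups compared, replicate number as a block, DESeq2 1.42.0, and leaving out each library; for list genes they were added after seeing the data. P-values measure the spread between these libraries.

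The members and lists were chosen with earlier results of these data known. Genes were named by rule: MTHFD2, the members, the 8 epithelial markers, up to 3 genes per list and direction that had the lowest adjusted p for the averaged genotype difference, up to 2 per list in each time comparison and the interaction, the 3 genes most like each tested member, and the nearest neighbours. HNF4G, KLF6 and other genes given by level alone were chosen after their values were seen. Promoters are RefSeq windows on GRCh38.p14 (300 bases, of which the 250 before the start were used throughout); 7 of the 9 members have a window.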

Additional observations from a re-analysis of the deposited data

Results flagged for a closer look

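HNF4A was set apart because its genotype difference differed between the harvests by a test of the difference itself. Its interaction of genotype and time was -1.60 on the log2 scale (edgeR's quasi-likelihood test, adjusted p 9.79e-05), with the knock-out above the wild type in 3 of 3 libraries at the initial and below it in 3 of 3 at the final harvest. The final harvest followed 2 months of culture, and the knock-out was 1 clone, so clone and genotype cannot be told apart.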

How the results depend on the processing

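The calls on HNF4A at either harvest, in the interaction and over wild-type culture held under every alternative run. Scaling by library totals alone and fitting only the groups compared each left 1 member called over time in the wild type in place of 2, and the fit without a filter called 2 in the interaction in place of 1. Over all genes, fitting only the groups compared gave 578 genes over time in the wild type (1183 in the model of all libraries) and 728 in the knock-out (270), no filter gave 484 over time in the knock-out and 423 in the interaction (235), and DESeq2 gave 602 and 472. Leaving out 1 library gave 2423 to 4615 genes at the initial harvest, 2561 to 3895 at the final harvest and 4657 to 6039 on average. Members are not counted in these genotype comparisons, because the filter can admit a member through wild-type libraries alone, as it did KRT20. Over time, leaving out 1 library gave 627 to 1399 genes and 1 to 2 members in the wild type, and 94 to 463 genes and 0 members in the knock-out. In the interaction it gave 124 to 444 genes and 1 to 2 members. Differences that were not called changed sign: KRT20 over time in the knock-out (-0.000438) was 9.56e-05 with RLE factors and 0.019 with the replicate block, and -0.972 to 0.359 without 1 library. Without 1 library CDX2 ranged from -0.0894 to 0.0906 at the final harvest, and over time from -0.0269 to 0.23 (wild type) and from -0.167 to 0.0123 (knock-out). KLF4 ranged over time from -0.0185 to 0.345 (wild type) and from -0.0458 to 0.217 (knock-out), and in the interaction from -0.274 to 0.146. The replicate block changed no call on a member and gave 1123 genes over time in the wild type, 246 in the knock-out and 217 in the interaction. Deviations of same-numbered libraries from their group means correlated from -0.590 to 0.534 over 18 pairs of libraries (median 0.058). Those of differently numbered libraries correlated from -0.773 to 0.728 over 36 pairs (median -0.037). Deviations from a mean of 3 libraries are tied to each other, so these values cannot decide whether same-numbered libraries were paired. The cause of these changes was not tested. Depth limited CDX1, CEACAM5, CEACAM6, VIL1 and KRT20, for which a change of a few reads moves the value.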

Other observations

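Most genes of neighbouring lineages were too low to test. Among 12 gastric and foregut genes 3 were tested, and 5 had 0 counts in every library. ANXA10, an annexin of the stomach lining, had 4.88 ± 0.783 CPM in the initial and 17.6 ± 0.639 CPM in the final wild type (SD, n = 3), a rise of 1.85 on the log2 scale (edgeR adjusted p 8.91e-07). Knock-out libraries held at most 1 count of it at first and at most 3 after culture, so that it was at least 64.4-fold and at least 233-fold lower, against a floor of 3 counts per library. PDX1 was lower on average (-0.51, edgeR adjusted p 0.0104), and CLDN18 was higher on average (0.65, edgeR adjusted p 0.0478), a call lost with DESeq2, without a filter, with the replicate block and in 9 of the 12 fits that left out a library. Of 8 hepatocyte genes, which HNF4A drives in the liver, 3 were tested and all 3 were higher on average in the knock-out: ALB (1.36, edgeR adjusted p 0.000482), TF (0.95, edgeR adjusted p 0.000838) and SERPINA1 (0.37, edgeR adjusted p 0.00919). The levels of these 3 hepatocyte genes were low, with ALB at 0.379 ± 0.146 and 0.969 ± 0.234 CPM at the initial harvest (SD, n = 3).

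Secretory and crypt genes were divided. Of 19 goblet and secretory genes 9 were tested, and the knock-out had 2 higher and 2 lower at first, then 0 higher and 2 lower after culture; MUC2 had at most 3 counts and TFF3 0. GFI1, a factor of secretory progenitors, was lower on average (-0.43, edgeR adjusted p 5.24e-05) and fell over time in the wild type (-0.67, edgeR adjusted p 0.000185), and KLK1 (-0.73, edgeR adjusted p 0.00147) and BCAS1 (-1.11, edgeR adjusted p 0.00182) were lower on average. Of 15 enteroendocrine genes 5 were tested, with 0 higher and 2 lower at first, then 1 higher and 1 lower; SCG2, a granin, was lower on average (-0.88, edgeR adjusted p 2.2e-07). Of 19 crypt genes 15 were tested, with 3 higher and 4 lower at first, then 5 higher and 4 lower. RNF43, a ligase that restrains Wnt receptors, was lower at both (-2.60, edgeR adjusted p 2.69e-12, and -2.57, edgeR adjusted p 1.33e-12), while AXIN2, a Wnt target, was higher (1.14, edgeR adjusted p 7.84e-08, and 0.85, edgeR adjusted p 2.01e-06). HES1, a Notch target, was lower on average in the knock-out (-0.48, edgeR adjusted p 4.76e-05) and fell over time in both genotypes (-0.66, edgeR adjusted p 0.000537, and -0.65, edgeR adjusted p 0.00209). LGR5 had at most 10 counts and ASCL2 0.

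Of the 8 epithelial markers the knock-out had 4 lower at first and 6 lower after culture (4 with library totals alone). Over all genes tested, 11.3% and 10.2% were lower. The initial EPCAM call was lost in 4 of the 12 fits that left out a library (edgeR adjusted p from 0.0578 to 0.0672). Its final call was lost in 8 (edgeR adjusted p from 0.0501 to 0.141), and the initial CLDN4 call in 3 (edgeR adjusted p from 0.089 to 0.115). CDH1 was lower at both harvests (-1.01, edgeR adjusted p 4.77e-05, and -0.44, edgeR adjusted p 0.0291). The final CDH1 call was lost with library totals alone (edgeR adjusted p 0.0588) and without the final wild-type replicate 1 or the final knock-out replicate 1 or 3 (-0.42 to -0.30, adjusted p from 0.0807 to 0.13). CLDN7 was lower on average (-0.64, edgeR adjusted p 6.64e-05), as was CLDN4 (-0.50, edgeR adjusted p 0.000417), whereas KRT8 (averaged -0.18, edgeR adjusted p 0.152) and CLDN3 (-0.19, edgeR adjusted p 0.43) did not pass. Of the markers of other cell types, 2 of 7 fibroblast, 3 of 6 leukocyte and 4 of 5 endothelial genes were tested. COL1A1 (-0.54, edgeR adjusted p 0.000288) and COL3A1 (-1.67, edgeR adjusted p 0.000289) were lower on average in the knock-out, and LYZ (1.98, edgeR adjusted p 9.89e-08) and KDR (0.72, edgeR adjusted p 0.00121) were higher. LYZ is also made by Paneth cells, and it had 0.305 ± 0.0742 and 1.72 ± 0.142 CPM at the initial harvest (SD, n = 3).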
